A study of Danio rerio with 24 samples.

Results

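The Smad family is the set of intracellular proteins that carry signals from BMP, Nodal, activin and TGF-beta receptors to the nucleus. Its transcripts were followed here in sorted primordial germ cells (PGCs), the embryonic precursors of eggs and sperm, of the zebrafish. The 10 genes described are those whose name in the expression tables was smad1, smad5, smad9, smad2, smad3a, smad3b, smad4a, smad6a, smad6b or smad7. Each name matched 1 of the 32520 gene rows, and 1 further row, smad4b, has a Smad name and was not among the members.

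Receptor-regulated Smads are phosphorylated by activated type I receptors: Smad1, Smad5 and Smad9 by BMP receptors, Smad2 and Smad3 by Nodal, activin and TGF-beta receptors. They then bind the common partner Smad4 and act on target genes in the nucleus, while the inhibitory Smads, Smad6 and Smad7, block the receptors and are themselves often induced by the pathway. In zebrafish embryos BMP signalling patterns the ventral side during gastrulation, and PGCs are set aside by inherited germ plasm and not by a BMP signal as in the mouse.

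RNA was profiled in 20 libraries at 2 stages, 1 day post-fertilization (1 dpf) and 75% epiboly, which falls in gastrulation. The first experiment compared PGCs with a germline-restricted loss of smad1 (smad1-cKO) with PGCs of wild-type controls, in 3 libraries per group and stage. The second compared PGCs of wild-type embryos injected with a smad1 morpholino (smad1-KD), an antisense oligomer that acts throughout the embryo, with those of wild-type embryos injected with a control morpholino (control-MO), in 2 libraries per group and stage. All embryos carried a fluorescent PGC label and were kept in Holtfreter's water, and how the germline restriction was made is not given in the sources used here. The comparisons address which part the BMP-specific Smads play in PGCs.

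Values are TPM, a measure of the length-scaled share that each transcript takes of its library. They keep no depth, and 13371 to 24547 genes per library were above 0. Nothing in the labels says that replicates came from separate clutches, so a p-value speaks for the spread among these particular libraries, which can be technical. In bulk RNA, fewer cells of a type and less RNA per cell cannot be told apart. All 9 germ cell markers listed, among them nanos3 and ddx4, were detected in each group. Their summed level was 13398 to 20754 TPM in cKO and 15143 to 19532 TPM in control libraries at 1 dpf, but 1046 to 4797 TPM in KD and 1516 to 5221 TPM in control-MO libraries. At 75% epiboly it was 4976 to 33591 TPM in cKO and 4265 to 22292 TPM in control libraries, against 809.6 to 1585 TPM in KD and 784.7 to 1084 TPM in control-MO libraries. Transcripts of the 8 blood markers summed to 32599 and 68010 TPM in the KD and to 18602 and 6979 TPM in the control-MO libraries at 1 dpf. In the first experiment they summed to 114, 40.3 and 3.55 TPM in cKO and to 1.37, 4.24 and 0.0451 TPM in control libraries at 1 dpf. The libraries sorted as PGCs in the 2 experiments thus differed in how much germ cell and blood transcript they held.

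In the order of levels, which TPM allows because they are scaled by transcript length, a BMP-specific Smad stood at the top in every group. In controls at 1 dpf smad1 (138 TPM) and smad9 (134 TPM) led with overlapping libraries, followed without overlap by smad5 (36.0 TPM) and the inhibitory smad6b (26.2 TPM). The order ended with smad3b, smad3a and smad4a, at 4.33, 3.14 and 1.35 TPM. In controls at 75% epiboly smad5 led alone with 95.1 TPM. The common partner smad4a (41.1 TPM) and smad9 (34.8 TPM) came next and overlapped each other, then smad1, smad7, smad2, smad6a and smad6b between 13.7 and 5.60 TPM, each overlapping its neighbour. The paralogs smad3a and smad3b closed the order at 0.614 and 0.222 TPM.

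**Figure D1:**
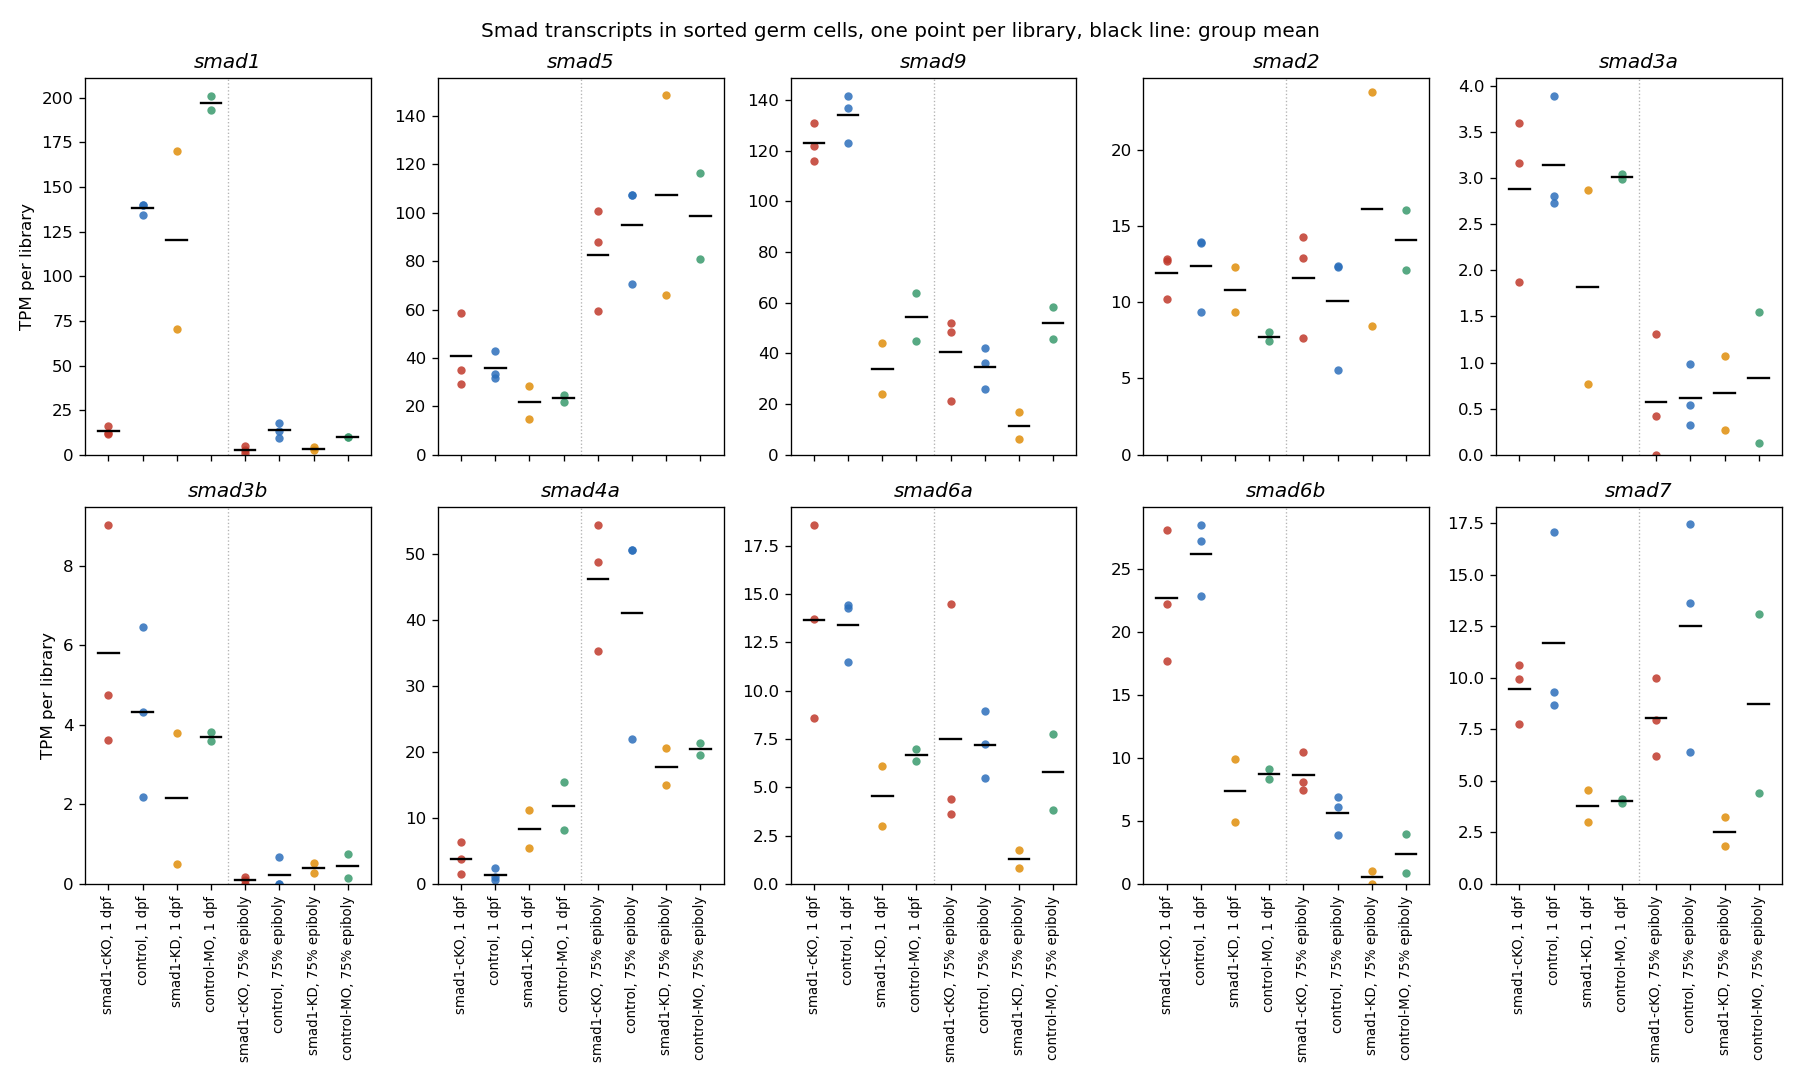
TPM (vertical axis, linear from 0, a separate scale in each panel) of the 10 Smad genes in the 8 groups of libraries; each point is a library and each black line a group mean. The cKO libraries at 1 dpf hold smad1 at 11.7 to 16.4 TPM where controls hold 134 to 140.0 TPM, while smad5 is lower and smad9 is higher at 1 dpf than at 75% epiboly in the cKO experiment.

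The makeup of the BMP-specific Smad transcripts differed between the stages. In control PGCs smad1 and smad9 rose and smad5 fell at 1 dpf relative to 75% epiboly. For smad5, the member required maternally for ventral patterning in zebrafish, controls had 31.7, 33.5 and 42.8 TPM at 1 dpf, against 70.7, 107.3 and 107.3 TPM at 75% epiboly. Every 1 dpf library was thus below every 75% epiboly library (difference of log2(TPM + 1) -1.36, SE 0.33, limma adjusted p = 0.0035). For smad9, the third BMP-specific member, controls had 137, 142 and 123 TPM at 1 dpf, against 42.2, 26.1 and 36.1 TPM at 75% epiboly. The groups did not overlap (log2 difference 1.94, SE 0.33, limma adjusted p = 3.39e-04). The gene smad1 itself, at 140.0, 140.0 and 134 TPM at 1 dpf against 9.68, 13.5 and 17.9 TPM at 75% epiboly, had a mean 10.1 times as high (log2 difference 3.28, SE 0.40, limma adjusted p = 2.5e-05).

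Among the other members of the control stage comparison, the common partner smad4a fell most. It had 2.43, 1.1 and 0.512 TPM at 1 dpf, against 50.6, 50.6 and 22.0 TPM at 75% epiboly, so that the groups lay far apart (log2 difference -4.15, SE 0.49, limma adjusted p = 2e-05). The second Smad4 gene, smad4b, which is not a member, went the other way in these controls. Its mean was 27.7 TPM at 1 dpf and 7.97 TPM at 75% epiboly, with a listed 0 in replicate 3 at 75% epiboly. The inhibitory smad6b rose to 28.4, 22.8 and 27.2 TPM at 1 dpf, against 6.86, 3.84 and 6.09 TPM at 75% epiboly, with no overlap (log2 difference 2.07, SE 0.33, limma adjusted p = 2.17e-04). Its paralog smad6a had 11.5, 14.3 and 14.4 TPM at 1 dpf and 5.47, 7.22 and 8.94 TPM at 75% epiboly, and did not pass the test although the groups did not overlap (log2 difference 0.83, limma adjusted p = 0.152). The TGF-beta-type smad3b rose to 4.32, 2.19 and 6.47 TPM at 1 dpf, against 0.665 TPM in 1 library and a listed 0 in the other 2 at 75% epiboly (log2 difference 2.08, limma adjusted p = 0.00135). Its paralog smad3a had 2.81, 2.73 and 3.89 TPM at 1 dpf against 0.987, 0.319 and 0.537 TPM at 75% epiboly (log2 difference 1.37, limma adjusted p = 0.0108). That call ended under quantile normalization, where the difference was -0.12, and under TMM-style scaling, where it was 0.95 (limma adjusted p = 0.0671). The smad3b call ended under quantile normalization (log2 difference 0.84, limma adjusted p = 0.164). The remaining members, smad2 and smad7, overlapped between the stages and missed the threshold (limma adjusted p = 0.489 and 0.929).

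In all, 5 members rose and 2 fell between the stages in controls, in a comparison that called 55.6% of the 16567 genes tested, 43.9% as higher and 11.7% as lower. The excess of higher calls depended on scaling: 7267 genes were called higher and 1939 lower as deposited, 5293 and 3127 under TMM-style scaling, and 4044 and 4068 under quantile normalization. Under quantile normalization 3 members were called higher and 2 lower, and under TMM-style scaling 4 and 2. The median over the members was 1.1 and that over all genes 0.96 on the log2 scale, against 0.41 over all genes under TMM-style scaling and 0.02 under quantile normalization. Relative to the median of 0.96 the differences were 2.32 for smad1, 0.97 for smad9, 1.1 for smad6b, 1.12 for smad3b and 0.41 for smad3a. They were -0.14 for smad6a, -0.63 for smad2, -1.01 for smad7, -2.33 for smad5 and -5.12 for smad4a. The share of all genes whose libraries did not overlap between the stages was not computed, so non-overlap of a member is given as description only. Stage and deposited table cannot be told apart, since each table holds 1 stage. The endoderm and yolk markers summed to 461 to 2807 TPM in controls at 75% epiboly and to 82.8 to 130 TPM at 1 dpf. Notochord markers summed to 121 to 373 TPM and to 11.4 to 14.7 TPM. Muscle markers went the other way, from 3.19 to 3.69 TPM at 75% epiboly to 22.4 to 50.4 TPM at 1 dpf. The germ cell, skin, blood and neural sums overlapped between the stages. The part of these transcripts in the stage differences was not tested.

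In control-MO PGCs 1 member rose and 1 fell between the stages, in a comparison that called 26.4% of 16311 genes, 22.8% as higher and 3.58% as lower. As deposited 3721 genes were called higher and 584 lower, under TMM-style scaling 2581 and 1784, and under quantile normalization 1878 and 2051. The control-MO libraries had smad1 at 201 and 193 TPM at 1 dpf, against 9.96 and 9.80 TPM at 75% epiboly, the widest gap among the 10 members on the log2 scale (log2 difference 4.18, SE 0.53, limma adjusted p = 0.00185). They had smad5 at 22.0 and 24.7 TPM at 1 dpf, against 117 and 81.1 TPM at 75% epiboly (log2 difference -2.02, SE 0.54, limma adjusted p = 0.0214). The smad5 call ended when any 1 of these 4 libraries was left out, with differences between -2.27 and -1.76 (limma adjusted p between 0.0813 and 0.133). For smad9 the stages overlapped, at 64.0 and 44.7 TPM at 1 dpf and 58.2 and 45.8 TPM at 75% epiboly (log2 difference 0.05, limma adjusted p = 0.957). That difference turned to -0.27 under quantile normalization and -0.68 under TMM-style scaling.

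The common partner smad4a in control-MO PGCs had 8.18 and 15.5 TPM at 1 dpf, against 21.4 and 19.6 TPM at 75% epiboly, without overlap (log2 difference -0.80, limma adjusted p = 0.322). It passed under quantile normalization (log2 difference -1.38, limma adjusted p = 0.0493) and under TMM-style scaling (log2 difference -1.49, limma adjusted p = 0.0315). The differences of smad3b (log2 difference 1.73, limma adjusted p = 0.0655), smad6b (log2 difference 1.69, limma adjusted p = 0.101) and smad3a (log2 difference 1.25, limma adjusted p = 0.164) had the sign seen in controls and did not pass. For smad3a it was -0.27 under quantile normalization. For smad2 the control-MO libraries had 7.43 and 8.05 TPM at 1 dpf, against 16.0 and 12.1 TPM at 75% epiboly, without overlap (log2 difference -0.77, limma adjusted p = 0.364). It passed under quantile normalization (log2 difference -1.49, limma adjusted p = 0.0247) and under TMM-style scaling (log2 difference -1.44, limma adjusted p = 0.0269). Those of smad7 were 3.93 and 4.12 TPM at 1 dpf, against 13.1 and 4.39 TPM at 75% epiboly, also without overlap (log2 difference -0.79, limma adjusted p = 0.392), and this gene passed under quantile normalization (log2 difference -1.83, limma adjusted p = 0.0356). The libraries of smad6a overlapped, at 6.97 and 6.34 TPM at 1 dpf and 7.74 and 3.83 TPM at 75% epiboly (log2 difference 0.23; -0.67 under quantile normalization and -0.39 under TMM-style scaling). The median over the members was 0.14 and that over all genes 0.82, against 0.24 over all genes under TMM-style scaling and -0.05 under quantile normalization. Here too the share of all genes without overlap between the stages was not computed, so non-overlap of a member is description only. Whether a stage difference differed between controls and control-MO PGCs was not tested. The germ cell, blood and muscle marker sums of control-MO libraries were higher at 1 dpf than at 75% epiboly without overlap. Their endoderm and yolk sums and their notochord sums were lower without overlap, and the skin and neural sums overlapped. The part of these transcripts in the control-MO stage differences was not tested.

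**Figure D2:**
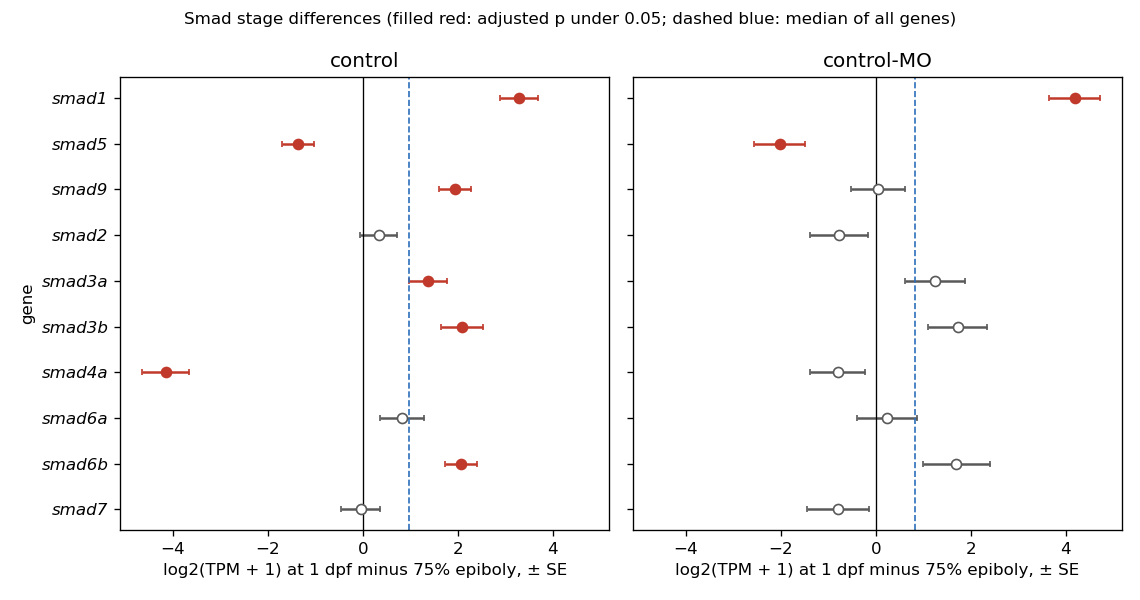
Stage difference of each Smad gene (horizontal axis, log2(TPM + 1) at 1 dpf minus 75% epiboly, with its standard error) in control PGCs on the left and control-MO PGCs on the right; filled red points passed the limma test and the dashed line is the median over all genes tested. The points of smad1 at 3.28 and 4.18 and of smad5 at -1.36 and -2.02 lie on opposite sides of 0 in both panels.

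In cKO PGCs the smad1 transcript lay far below controls, while smad5 and smad9 libraries overlapped those of controls at both stages. At 1 dpf smad1 had 16.4, 12.5 and 11.7 TPM in cKO PGCs, against 140.0, 140.0 and 134 TPM in controls. No cKO library came near a control library: the mean was at 9.77% of the control mean, and smad1 was the 1 member called (log2 difference -3.28, SE 0.19, limma adjusted p = 5.27e-04). It was also the 1 gene called among 17573 tested, which is 0.00569%. With the replicate number as a block, the adjusted p of smad1 was 0.00223, and 14 genes were called, or 0.0797%. At 75% epiboly smad1 had 2.68, 1.11 and 5.09 TPM in cKO PGCs, against 9.68, 13.5 and 17.9 TPM in controls. Here too the groups did not overlap, and the mean was at 21.6% of the control mean, but the gene missed the threshold (log2 difference -1.99, limma adjusted p = 1.00). There limma called 0% of 13006 genes, with 236 at an unadjusted p under 0.05. The cKO effect on smad1 at 1 dpf minus that at 75% epiboly was -1.29 on the log2 scale and did not pass (limma adjusted p = 1.00).

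At 1 dpf smad9 had 122, 116 and 131 TPM in cKO PGCs, against 137, 142 and 123 TPM in controls, and the groups overlapped. For smad5 the cKO libraries had 29.3, 58.6 and 34.9 TPM, against 31.7, 33.5 and 42.8 TPM in controls. Neither passed the test (limma adjusted p = 0.940 for smad9 and 0.975 for smad5). The transcripts of smad5 and smad9 together came to 164 ± 11.8 TPM in cKO and 170 ± 4.81 TPM in control PGCs (SD, n = 3 each; exact two-sided permutation p = 0.400). Within each of the 3 same-numbered pairs the cKO sum was the lower, at 151, 174.6 and 165.6 TPM against 169, 175.2 and 165.8 TPM in controls, though nearly equal in replicates 2 and 3. The mean difference of -6.05 TPM turned to 0.242 TPM without cKO replicate 1.

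The summed level of all 3 BMP-specific members was lower at 1 dpf. It was 177 ± 9.74 TPM in cKO PGCs and 308 ± 7.58 TPM in controls (SD, n = 3 each). All cKO libraries lay below all control libraries, and the exact two-sided permutation p of 0.1 is the smallest that 3 libraries against 3 can give. Within this sum smad1 made up 7.67 ± 1.82% in cKO and 44.9 ± 0.477% in control PGCs (exact permutation p = 0.1). Since the shares add up to the whole, those of smad9 (69.5% in cKO, 43.4% in controls) and smad5 (22.8% in cKO, 11.7% in controls) were larger where that of smad1 was smaller.

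At 75% epiboly, where smad1 contributed little in controls, the sums overlapped. They were 126 ± 38.9 TPM in cKO and 144 ± 19.6 TPM in control PGCs (SD, n = 3 each; exact two-sided permutation p = 0.600). The share of smad1 was 2.18 ± 1.01% in cKO and 9.40 ± 1.62% in control PGCs without overlap (exact permutation p = 0.1). The cKO libraries had smad5 at 88.0, 59.5 and 100.7 TPM, against 70.7, 107.3 and 107.3 TPM in controls. They had smad9 at 52.0, 21.2 and 48.5 TPM, against 42.2, 26.1 and 36.1 TPM in controls. For smad5 and for smad9 the cKO and control libraries overlapped. Replicate 2 of the cKO had the lowest value of each of the 3 genes, and without it the sum was 4.85 TPM higher in cKO than in control PGCs. That library also held the most germ cell marker transcript of the cKO libraries, 33591 TPM against 11371 and 4976 TPM in replicates 1 and 3. The part of germ cell content in these values was not tested.

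**Figure D3:**
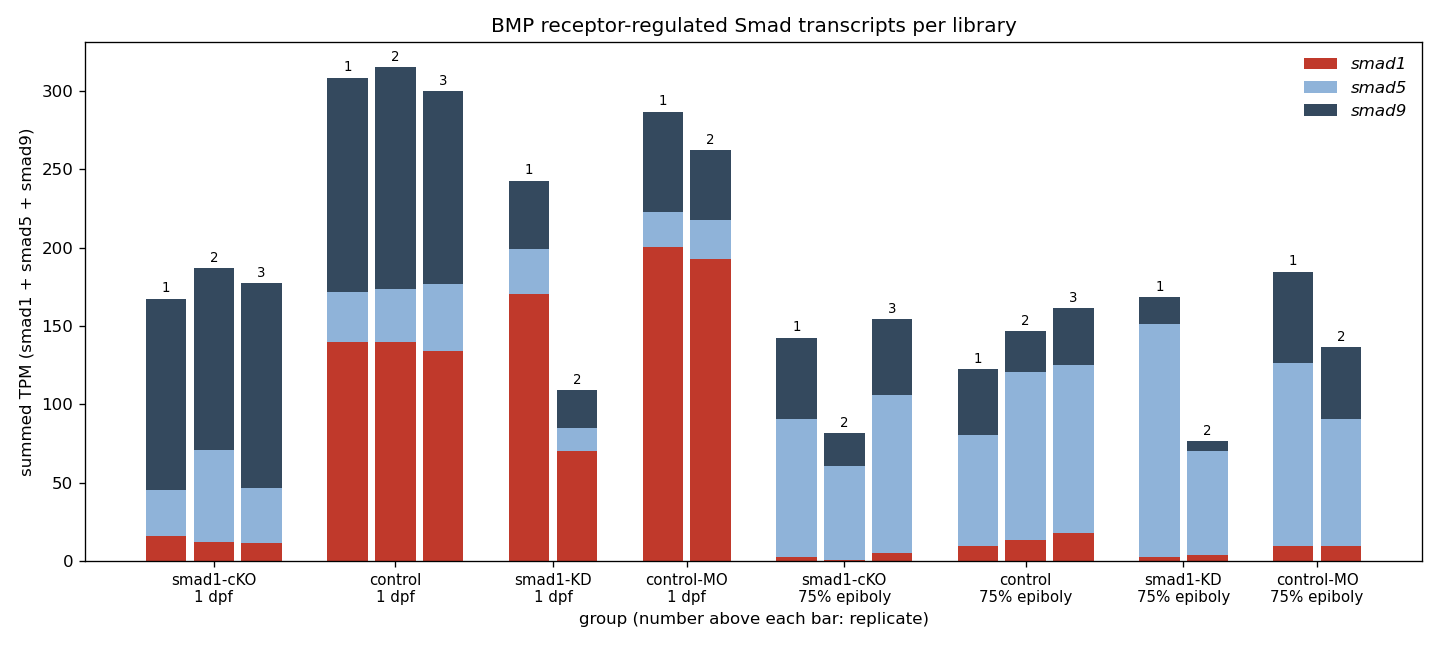
Summed TPM (vertical axis, from 0) of smad1, smad5 and smad9 in each of the 20 libraries, stacked by gene, with the replicate number above each bar. At 1 dpf the 3 cKO bars lack most of the smad1 segment and average 177 TPM against 308 TPM in controls, while at 75% epiboly smad5 forms most of every bar.

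Of the members that answer to other receptors or act beside them, none passed the test in the cKO comparisons. Smad2 and the 2 Smad3 paralogs are the receptor-regulated Smads of the Nodal and TGF-beta branch. At 1 dpf smad2 had 12.8, 12.7 and 10.2 TPM in cKO PGCs, against 13.9, 13.9 and 9.37 TPM in controls. At 75% epiboly it had 12.9, 7.66 and 14.3 TPM in cKO PGCs, against 5.55, 12.3 and 12.4 TPM in controls. The groups overlapped at both stages. At 1 dpf smad3a had 3.17, 3.60 and 1.87 TPM in cKO PGCs, against 2.81, 2.73 and 3.89 TPM in controls, and smad3b had 4.76, 9.01 and 3.60 TPM in cKO PGCs, against 4.32, 2.19 and 6.47 TPM in controls. These also overlapped, and at 75% epiboly both genes stayed at or under 1.31 TPM, below the minimum mean of 1 TPM for the test, so that 8 of the 10 members were tested there.

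The common partner smad4a had the largest difference after smad1 in the cKO at 1 dpf. Its values were 3.69, 6.29 and 1.52 TPM in cKO PGCs, against 2.43, 1.1 and 0.512 TPM in controls. The means differed 2.85-fold, but the lowest cKO library lay below the highest control library (log2 difference 1.00, SE 0.52, limma adjusted p = 0.844). Within each of the 3 same-numbered pairs the cKO library was the higher, and with the replicate block the gene did not pass either (limma adjusted p = 0.572). The 9 skin markers summed to 4164, 5249 and 248.9 TPM in cKO replicates 1 to 3, against 3221, 296 and 272 TPM in controls, so that replicate 1 was high in both groups, replicate 2 in the cKO and replicate 3 in neither. The part of skin transcript in the smad4a values was not tested. At 75% epiboly smad4a had 48.8, 35.3 and 54.4 TPM in cKO PGCs, against 50.6, 50.6 and 22.0 TPM in controls.

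Of the inhibitory Smads, smad6b was the 1 member besides smad1 whose groups did not overlap at 75% epiboly, where 5.21% of the genes tested did not, 1.85% as higher and 3.36% as lower. Its values were 10.5, 7.42 and 8.11 TPM in cKO PGCs, against 6.86, 3.84 and 6.09 TPM in controls, a ratio of means of 1.55 that missed the threshold (limma adjusted p = 1.00). At 1 dpf it had 22.2, 17.7 and 28.1 TPM in cKO PGCs, against 28.4, 22.8 and 27.2 TPM in controls, with overlap. The gene smad6a had 8.60, 13.7 and 18.6 TPM in cKO PGCs at 1 dpf, against 11.5, 14.3 and 14.4 TPM in controls. At 75% epiboly cKO replicate 1 stood apart from the others in smad6a, at 14.5 TPM next to 3.61 and 4.40 TPM, while controls had 5.47, 7.22 and 8.94 TPM. For smad7 the cKO libraries had 7.77, 9.95 and 10.6 TPM at 1 dpf, against 17.1, 9.31 and 8.69 TPM in controls. At 75% epiboly smad7 had 6.18, 7.93 and 9.99 TPM in cKO PGCs, against 6.41, 13.6 and 17.5 TPM in controls, and both pairs of groups overlapped. At 75% epiboly the cKO library was the lower in each of the 3 same-numbered pairs, and smad7 did not pass with the replicate block (limma adjusted p = 1.00). At 1 dpf smad1 was the 1 member whose groups did not overlap, where 11.4% of the genes tested did not, 5.66% as higher and 5.78% as lower.

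The median difference over the members tested was -0.08 at 1 dpf and -0.00 at 75% epiboly, against -0.01 and -0.07 over all genes. At both stages smad1 lay far below the other members.

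In the morpholino knockdown at 75% epiboly the libraries of smad1, smad9, smad6a and smad7 were lower in KD than in control-MO PGCs without overlap. No member passed the test. Of the 8 members tested, these 4 were lower without overlap, and none was higher, where 22.3% of the 12968 genes tested did not overlap, 14.9% as lower and 7.37% as higher. With 2 libraries against 2, non-overlap is a weak criterion. Limma called 0% of genes, and 164 had an unadjusted p under 0.05. In simulated data the fit recovered 0% of genes changed by a log2 difference of 3. The simulated spread of each gene came from these few libraries, so that share does not measure what the fit can detect. The block on replicate number called 27 genes (0.208%), none of them a member.

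For smad9 the KD libraries had 16.9 and 6.18 TPM, against 58.2 and 45.8 TPM in control-MO libraries. Both KD values lay well below both control-MO values (log2 difference -2.21, SE 0.66, limma adjusted p = 1.00). With the replicate block the adjusted p was 0.197. For smad1 itself the KD libraries had 2.60 and 4.23 TPM, against 9.96 and 9.80 TPM in control-MO libraries (log2 difference -1.33, limma adjusted p = 1.00). A morpholino can block the use of a transcript without lowering its amount, so this level does not measure how far the protein was reduced. For smad5 the groups overlapped, at 149 and 66.1 TPM in KD and 117 and 81.1 TPM in control-MO PGCs.

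The makeup of the BMP-specific transcripts at 75% epiboly had a smaller share of smad9, 9.06% in KD and 32.5% in control-MO PGCs. Since the shares add up to the whole, that of smad5 was larger, 87.4% in KD and 61.2% in control-MO PGCs, while its TPM overlapped. Neither pair of shares overlapped, and the exact two-sided permutation p of 0.333 is the smallest that 2 libraries against 2 can give. The share of smad1 was 3.54% in KD and 6.28% in control-MO PGCs, with overlap (exact permutation p = 0.667). The summed level was 122 TPM in KD and 161 TPM in control-MO PGCs and overlapped (exact permutation p = 0.667). Without KD replicate 2 the difference of -38.2 TPM turned to 7.68 TPM.

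All 3 inhibitory Smads had lower means in KD than in control-MO PGCs at 75% epiboly. The values of smad6a were 0.803 and 1.76 TPM in KD, against 7.74 and 3.83 TPM in control-MO PGCs (log2 difference -1.54, limma adjusted p = 1.00). Those of smad7 were 1.83 and 3.22 TPM in KD, against 13.1 and 4.39 TPM in control-MO PGCs (log2 difference -1.33, limma adjusted p = 1.00). In both genes the higher KD library stayed below the lower control-MO library. For smad6b, which was listed at 0 in KD replicate 1 and had 1.02 TPM in replicate 2, against 3.93 and 0.823 TPM in control-MO PGCs, the groups overlapped (log2 difference -1.08, limma adjusted p = 1.00). The endoderm and yolk markers summed to 654.0 and 602 TPM in the same KD libraries, against 2728 and 1316 TPM in control-MO libraries, and their part in these differences was not tested.

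The Nodal-branch members and the common partner showed no such gap. The values of smad2 were 23.8 and 8.46 TPM in KD, against 16.0 and 12.1 TPM in control-MO PGCs, and those of smad4a were 20.6 and 15.0 TPM in KD, against 21.4 and 19.6 TPM in control-MO PGCs. Both overlapped. The Smad3 paralogs were again low, with smad3a at 1.07 and 0.268 TPM in KD and 1.55 and 0.125 TPM in control-MO PGCs, and smad3b at 0.531 and 0.270 TPM in KD and 0.152 and 0.753 TPM in control-MO PGCs. The median over the 8 members tested was -1.20, against -0.06 over all genes.

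**Figure D4:**
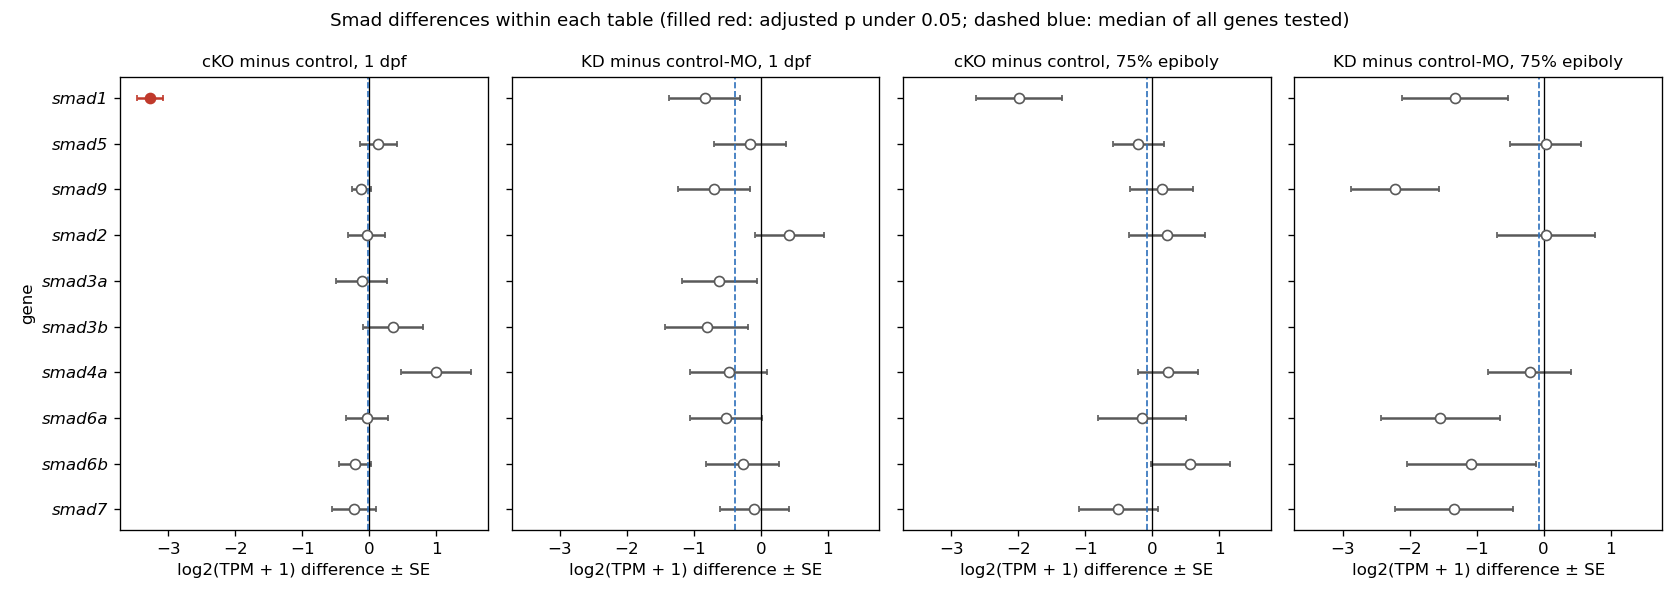
Difference of each Smad gene in the 4 comparisons within a table (horizontal axis, log2(TPM + 1) with its standard error); filled red marks an adjusted p under 0.05 and the dashed line is the median over all genes tested. The filled point is smad1 in the cKO at 1 dpf, at -3.28, and in the KD at 75% epiboly smad9 lies lowest, at -2.21.

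At 1 dpf the KD comparison showed a general shift: the median over all genes was -0.38 on the log2 scale, and 40.3% of the 17141 genes tested did not overlap, 34.7% as lower and 5.57% as higher. Under quantile normalization and under TMM-style scaling this median was 0.01. Against that background 4 of the 10 members were lower without overlap and 1 was higher, and the members' median was -0.50. As deposited 1 member, smad2, lay above 0, and under either scaling smad5, smad6b and smad7 did too. Of all genes tested 4084 lay above 0 as deposited, 8762 under quantile normalization and 8729 under TMM-style scaling. Limma called 0% of genes, with 1697 at an unadjusted p under 0.05; the block on replicate number called 866 genes (5.05%), none of them a member. KD replicate 2 had the lower value of the KD pair for each of the 10 members. The median over all genes was -0.70 with KD replicate 1 left out and -0.08 with KD replicate 2 left out. Lower values in KD replicate 2 were thus not particular to the members. That library also held the most blood marker transcript, whose part in these values was not tested.

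For smad1 the KD libraries had 170.3 and 70.28 TPM, against 201 and 193 TPM in control-MO libraries, without overlap (log2 difference -0.84, SE 0.53, limma adjusted p = 0.673). For smad9 they had 43.9 and 24.0 TPM, against 64.0 and 44.7 TPM in control-MO libraries, where the higher KD value lay just under the lower control-MO value (log2 difference -0.70, SE 0.54, limma adjusted p = 0.744). Relative to the shift of all genes these differences were -0.46 for smad1 and -0.33 for smad9. For smad5 the groups overlapped, at 28.6 and 15.0 TPM in KD and 22.0 and 24.7 TPM in control-MO PGCs. The summed level of the 3 BMP-specific members was 176 TPM in KD and 275 TPM in control-MO PGCs, without overlap (exact two-sided permutation p = 0.333, the smallest possible). The size of these differences rested on KD replicate 2: without it the sum differed by -31.7 TPM in place of -98.5 TPM and smad1 by -0.21 on the log2 scale, and under TMM-style scaling the sum differed by -40.3 TPM. The share of smad1 in it was 67.2% in KD and 71.8% in control-MO PGCs and overlapped (exact permutation p = 0.667).

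The member that was higher at 1 dpf was smad2, with 12.3 and 9.37 TPM in KD, against 7.43 and 8.05 TPM in control-MO PGCs. It lay above the control-MO libraries without passing the test (limma adjusted p = 0.843). The members smad3a, at 2.87 and 0.769 TPM in KD against 3.05 and 2.99 TPM in control-MO PGCs, and smad6a, at 6.10 and 2.99 TPM in KD against 6.97 and 6.34 TPM in control-MO PGCs, were lower without overlap. The other 4 members overlapped between the groups. They were smad3b (3.79 and 0.503 TPM in KD, 3.82 and 3.58 TPM in control-MO PGCs), smad4a (11.1 and 5.42 TPM in KD, 8.18 and 15.5 TPM in control-MO PGCs), smad6b (9.87 and 4.94 TPM in KD, 8.33 and 9.07 TPM in control-MO PGCs) and smad7 (4.53 and 2.98 TPM in KD, 3.93 and 4.12 TPM in control-MO PGCs).

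The cKO and the KD effects were also set against each other, since each has its own controls. The germ cell and blood sums given for the 2 experiments differed, and their part in these contrasts was not tested. At 1 dpf the cKO effect on smad1 minus the KD effect was -2.44 on the log2 scale and missed the threshold (SE 0.47, limma adjusted p = 0.0715), while 0.184% of 17965 genes passed, 0.178% as higher in the cKO effect and 0.00557% as lower. It passed with the replicate block (limma adjusted p = 0.00999; 1.99% of genes called), under quantile normalization (log2 difference -2.68, limma adjusted p = 0.0381) and under TMM-style scaling (log2 difference -2.90, limma adjusted p = 0.0226). Over all genes, 31 passed under quantile normalization and 6 under TMM-style scaling. The smad1 contrast did not pass with a pseudocount of 0.1, without the filter, with a minimum of 5 TPM or without the trend. Nor did it pass when any cKO or control library was left out. The log2 difference was -1.80 without KD replicate 1 and -3.07 without KD replicate 2, fits that leave 1 library in the KD group. At 75% epiboly the smad9 difference was 2.36 higher in the cKO than in the KD and did not pass (SE 0.77, limma adjusted p = 1.00; 0% of 13236 genes called, 175 at an unadjusted p under 0.05). No other member was called in these contrasts or in those between the stages' effects. In the KD the stage contrast called 0% of 16311 genes, with 695 at an unadjusted p under 0.05, and in the cKO 0% of 16567, with 628.

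Other parts of the pathway were read from 5 lists: receptors, Smad regulators, Smad cofactors, BMP targets and Nodal targets. Without the replicate block no gene of these lists was called in the 4 comparisons within a table. The receptors stayed close to all genes at 75% epiboly, with medians of -0.02 in the KD (12 tested) and -0.14 in the cKO (13 tested). At 1 dpf their medians were -0.09 in the KD and 0.20 in the cKO (17 tested in each), against -0.38 and -0.01 over all genes. Of these receptors 8 were above 0 in the KD and 13 in the cKO. The type I receptor tgfbr1a, the receptor with the smallest p there, had 4.41 and 3.39 TPM in KD and 17.5 and 11.3 TPM in control-MO PGCs at 1 dpf (limma adjusted p = 0.297). Its groups did not overlap, in a comparison where 34.7% of all genes tested were lower without overlap. Of the 22 Smad regulators tested in each comparison, bambia, a pseudoreceptor that dampens BMP signalling, had 38.0 and 15.1 TPM in KD and 212 and 116 TPM in control-MO PGCs at 75% epiboly (log2 difference -2.65, limma adjusted p = 1.00). At 1 dpf, a different stage from these KD values, bambia had 88.8, 64.7 and 55.7 TPM in cKO PGCs, against 67.6, 55.0 and 38.5 TPM in controls. The groups overlapped, with means of 69.7 and 53.7 TPM (limma adjusted p = 0.877).

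Most BMP targets had lower levels in KD than in control-MO PGCs at 75% epiboly. Of 17 tested, 16 were below 0 and 1 above, with a median of -1.19 against -0.06 over all genes; 7 had an unadjusted p under 0.05, and the replicate block called 2 as lower, where it called 0.147% of all genes as lower. The secreted szl had 1.08 and 0.637 TPM in KD and 67.6 and 10.9 TPM in control-MO PGCs, and the homeobox repressor ved had 347 and 113 TPM in KD and 969 and 668 TPM in control-MO PGCs. The ventral homeobox gene eve1 had 59.1 and 22.4 TPM in KD and 209 and 121 TPM in control-MO PGCs. In these 3 genes every KD library lay below every control-MO library, as in 14.9% of all genes tested, and none passed (limma adjusted p = 1.00 for each). They were picked as the BMP targets with the smallest p in this comparison, so their separation adds no support of its own. The target with the highest level, id1, which encodes an inhibitor of DNA binding, had 606 and 826 TPM in KD and 1169 and 842 TPM in control-MO PGCs.

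The same targets in the cKO at 75% epiboly split evenly around 0, with 7 of 16 above, 9 below and a median of -0.15; 1 had an unadjusted p under 0.05, or 5 with the replicate block, and neither fit called any. Of them id3, another inhibitor of DNA binding, had 59.3, 34.4 and 42.2 TPM in cKO PGCs and 53.7, 90.3 and 126 TPM in controls (limma adjusted p = 1.00). At 1 dpf 10 of 16 targets were above 0 in the cKO, with a median of 0.63 against -0.01 over all genes. In the same libraries the skin markers summed to 4164, 5249 and 248.9 TPM in cKO PGCs and 3221, 296 and 272 TPM in controls, and the blood markers to 114, 40.3 and 3.55 TPM in cKO PGCs and 1.37, 4.24 and 0.0451 TPM in controls. Their part in the BMP target values was not tested. The highest by test was foxi1, an ectodermal forkhead gene, at 54.6, 54.7 and 130.0 TPM in cKO PGCs and 7.94, 27.5 and 19.5 TPM in controls (limma adjusted p = 0.274). The epidermal gene tp63, itself 1 of the 9 skin markers, had 10.5 and 19.8 TPM in cKO replicates 1 and 2 and 0.292 TPM in replicate 3, against 0.972, 0.670 and 0.238 TPM in controls. In the KD at 1 dpf 11 of 15 targets were below 0, with a median of -0.44 next to -0.38 over all genes. Of all 17141 genes tested there, 4084 were above 0, so being below 0 was not particular to the targets. In that comparison ved had 1.75 and 2.66 TPM in KD and 18.4 and 14.9 TPM in control-MO PGCs (limma adjusted p = 0.112).

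Nodal targets, read out by Smad2 and Smad3, showed no common direction at 75% epiboly, with 5 of 10 above 0 in the KD and 4 of 8 in the cKO. The endoderm gene sox32, also 1 of the 8 endoderm and yolk markers, had 2.60 and 2.81 TPM in KD and 148 and 17.9 TPM in control-MO PGCs (limma adjusted p = 1.00). The notochord gene noto, also 1 of the 4 notochord markers, had 48.3, 29.9 and 123 TPM in cKO PGCs and 10.9, 29.1 and 16.6 TPM in controls (limma adjusted p = 1.00). At 1 dpf 3 were high enough to test in the KD, all below 0, where 4084 of all 17141 genes tested were above 0. The mesoderm gene tbxta, also 1 of the 4 notochord markers, had 2.21 and 2.67 TPM in KD and 18.7 and 26.4 TPM in control-MO PGCs (limma adjusted p = 0.0884). The cofactor eomesa, a T-box partner of Smad2, was as low, with 0.461 and 0.167 TPM in KD and 9.72 and 7.93 TPM in control-MO PGCs (limma adjusted p = 0.0765). In the same KD and control-MO libraries the muscle markers summed to 101 and 36.5 TPM in KD and 549 and 706 TPM in control-MO PGCs. The notochord markers, tbxta included, summed to 3.92 and 7.45 TPM in KD and 32.2 and 57.6 TPM in control-MO PGCs. The part of muscle and notochord transcript in these values was not tested. In the cKO at 1 dpf 5 of 6 Nodal targets tested were above 0, with a median of 0.48 against -0.01 over all genes. The mesoderm gene tbx16, the Nodal target with the smallest p there, had 12.1, 6.42 and 4.54 TPM in cKO PGCs and 2.202, 3.94 and 2.49 TPM in controls (limma adjusted p = 0.699). Its groups did not overlap, in a comparison where 5.66% of all genes tested were higher without overlap. For eomesa the cKO libraries had 13.8, 8.22 and 11.01 TPM, against 4.30, 2.53 and 9.53 TPM in controls, with overlap (limma adjusted p = 0.761). The muscle markers summed to 326, 47.4 and 36.2 TPM in those cKO libraries, against 50.4, 22.4 and 32.9 TPM in controls.

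**Figure D5:**
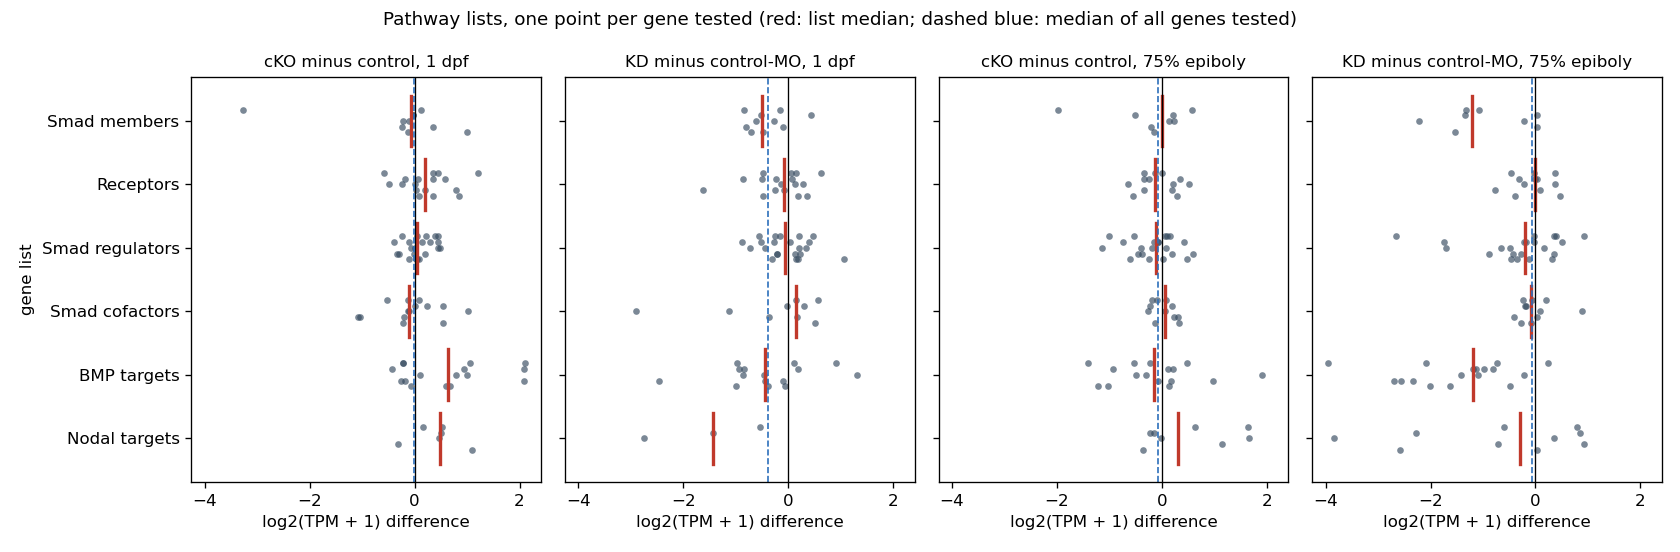
Differences of the genes tested in the Smad family and in 5 pathway lists (horizontal axis, log2(TPM + 1) difference, a point per gene) in the 4 comparisons within a table; red bars are list medians and the dashed line is the median over all genes tested. In the KD at 75% epiboly the medians of the Smad members and of the BMP targets lie at -1.20 and -1.19 and those of the other lists between -0.29 and -0.02.

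Genes whose levels most resembled those of the BMP-specific Smads over the 20 libraries were sought among 7126 genes with a mean of at least 10 TPM, by the root-mean-square difference of centred log2 values. For smad5 these were snrpc, cbx1a and cbx3a, at 0.295, 0.307 and 0.333, the first a splicing component and the others chromobox proteins of heterochromatin. For smad9 they were ift22, ubtd2 and impad1, at 0.467, 0.506 and 0.518. The nearest genes to smad1, pip4p2, ampd2a and nr2f1a, were farther away, at 1.05, 1.08 and 1.16. The 20 libraries include the cKO and KD libraries, in which smad1 itself was targeted. The larger distances of smad1 therefore cannot be read as a trait of its normal expression.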

How the data were processed

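Expression was deposited as TPM per gene in 4 tables, 1 for each experiment and stage. STAR 2.7.10b, StringTie 2.2.1 and the build GRCz11 (danRer11) are named in the submitters' processing notes, without their roles. The deposited amplicon tables of 4 further libraries hold read counts and percent modified reads, and were read but enter no result here. TPM keep no counts, so no count model was used, and an exact 0 may be a failed estimate. TPM were transformed as log2(TPM + 1), genes with a mean of at least 1 TPM were kept, and groups were compared with limma 3.58.1 (R 4.3.3) with an intensity trend, adjusted by Benjamini-Hochberg over all genes tested at a threshold of 0.05. The 4 comparisons within a table used that table alone. Stage differences used all 4 groups of an experiment, and differences between cKO and KD effects used all 4 groups of a stage. Sums and shares were compared by exact permutation of the libraries (scipy 1.17.1). Figures were drawn with matplotlib 3.10.9. TPM tables were normalized separately, and every column was used.

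The 10 members, the gene lists and the markers were chosen with earlier results of these data known. All members are named; each list names genes called, otherwise up to 3 by p and up to 2 by level in each comparison, of which the text gives a selection. Of the listed names acvr1c, usp15 and flh matched no row. In the cKO experiment every same-numbered pair of libraries deviated together (r = 0.176, 0.196 and 0.417 at 75% epiboly, 0.265, 0.105 and 0.272 at 1 dpf). The pairing comes from the replicate numbers in the labels and entered only the fits named with the replicate block. All other limma tests and the permutation tests took the libraries as unpaired. With signs flipped within the cKO and control pairs at 1 dpf, the exact sign-flip p was 0.25 for the smad1 share. It was also 0.25 for the summed TPM of all BMP-specific members and for that of smad5 and smad9. This is the smallest sign-flip p that 3 pairs can give. Any measure with the same sign in all 3 pairs reaches it, whatever the size of its differences, so it does not rank these measures. The fits were tested on simulated data with 200 changed genes: a log2 change of 1, 2 or 3 was recovered for 23.9%, 74.6% and 87.9% of genes in the cKO at 1 dpf, for 1.49%, 17.9% and 60.6% at 75% epiboly, and for 0% at each size in the KD at each stage. Each simulated gene was drawn with the spread of its own few libraries. The same simulation recovered 9.09% at a log2 change of 3 in the control-MO stage fit, which called 26.4% of genes in the data. The recovered shares thus do not measure what the fits can detect in the data. Genome positions and sequences are not used here.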

Additional observations from a re-analysis of the deposited data

How the results depend on the processing

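Fits were repeated with a pseudocount of 0.1, without the filter or with one of 5 TPM, after quantile normalization or TMM-style scaling, without the trend, with the replicate block, and without each library in turn. The number of members called stayed at 1 in the cKO at 1 dpf and at 0 in the other 3 comparisons within a table, in the stage contrasts of the cKO and KD effects and in the cKO minus KD contrast at 75% epiboly. In the control stage difference it was 5 under quantile normalization, 6 under TMM-style scaling and 7 otherwise, apart from the minimum of 5 TPM. That filter removed smad3a and smad3b, and 5 of the 8 members still tested were called. In the control-MO stage difference 5 members were called under quantile normalization, 4 under TMM-style scaling and 1 whichever library was left out, against 2. In the cKO minus KD contrast at 1 dpf 1 member, smad1, was called under quantile normalization, TMM-style scaling or the replicate block, and 0 to 1 with a library left out, against 0. Over all 10 contrasts 39 of 94 member differences changed sign under at least 1 setting, 14 of them under another scaling; 1 of the 39, smad3a in the control stage difference, had passed the test. Under another scaling smad5, smad6b and smad7 turned positive in the KD at 1 dpf and smad2 negative in the control stage difference. Examples are smad3a in the control stage difference (-0.12, quantile), smad3a in the control-MO stage difference (-0.27, quantile) and smad9 there (-0.27, quantile; -0.68, TMM-style; -0.20 to 0.30 with a library left out).

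Counts over all genes moved more. The replicate block gave 14 genes in the cKO at 1 dpf (1 without it), 866 in the KD at 1 dpf, 27 in the KD at 75% epiboly (0 without it in both) and 357 in the cKO minus KD contrast at 1 dpf (33 without it). In the KD experiment the labels do not say what same-numbered libraries share, and these were not taken as paired. Same-numbered deviations correlated at 0.601 at 1 dpf and 0.0777 at 75% epiboly. With 2 libraries per group both pairs of a stage must give the same value, so the pairs are no separate evidence. Of the 5 pathway lists the block there called as lower 2 BMP targets, 1 Smad regulator and 1 Nodal target at 75% epiboly, and 1 cofactor, 1 BMP target and 1 Nodal target at 1 dpf. It changed the call of no member other than smad1 in the cKO minus KD contrast. The KD at 1 dpf gave 43 genes with a minimum of 5 TPM and 10 without the trend. The control-MO stage difference gave 2400 of 9789 genes tested with a minimum of 5 TPM, against 4305 of 16311, so fewer genes were also tested. The cKO minus KD contrast at 1 dpf gave 51 with a pseudocount of 0.1, 59 with a minimum of 5 TPM, and 6 under TMM-style scaling or without the trend, and that at 75% epiboly gave 9 without a filter. The stage contrast of the cKO effect gave 1 without a filter, and that of the KD effect 1 with a pseudocount of 0.1 or a minimum of 5 TPM. The cause was not tested.

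With a library left out, the genes called ranged from 1 to 46 in the cKO at 1 dpf (46 without cKO replicate 3), from 0 to 41 in the KD at 1 dpf (41 without control-MO replicate 1), from 1001 to 2130 in the control-MO stage difference, from 0 to 1411 in the cKO minus KD contrast at 1 dpf (1411 without KD replicate 1), from 0 to 1 in that at 75% epiboly and from 0 to 3 in the stage contrast of the cKO effect. The summed BMP-specific TPM at 75% epiboly differed by -31.4 to 4.85 in the cKO and by -84.2 to 7.68 in the KD. The sum of smad5 and smad9 differed by -19.6 to 14.7 in the cKO and -78.5 to 15.0 in the KD at 75% epiboly, and by -11.4 to 0.242 in the cKO at 1 dpf. With 2 libraries per group the KD comparisons could not reach a permutation p below 0.333, and TPM give no depth, so low values such as those of smad3a and smad3b have unknown counting error.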

Other observations

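The second Smad4 gene of the tables, smad4b, had the opposite stage pattern to smad4a. In controls smad4b had 35.1, 24.6 and 23.5 TPM at 1 dpf, against 13.4 and 10.5 TPM in replicates 1 and 2 at 75% epiboly and a listed 0 in replicate 3. In control-MO PGCs it had 35.9 and 40.5 TPM at 1 dpf, against 12.5 and 7.66 TPM at 75% epiboly, and the stages did not overlap in either. At 1 dpf the cKO libraries had smad4b at 20.3, 36.2 and 21.1 TPM, and the KD libraries at 52.4 and 16.0 TPM, overlapping their controls. At 75% epiboly the cKO libraries had 4.0, 3.25 and 5.39 TPM, between the listed 0 and the other 2 controls. The KD libraries had 9.98 and 13.0 TPM there and overlapped the control-MO libraries.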
